A study of Mus musculus with 2 samples.

Results

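The genes described here are 43 genes of the response to ultraviolet (UV) damage, 23 of nucleotide excision repair and the closing steps of lesion repair and 20 of the p53 response, taken by name from the non-control probes of both array files. They hold 99 of the 56605 non-control probes, 54 for the repair genes and 45 for the p53 genes. All 43 were measured on both arrays, among 19872 genes of 37325 gene names for which that was so. The samples were UVB-induced skin tumours of male mice, 1 labelled wild type (P2RY6+/+) and 1 labelled P2RY6-/-, each on 1 single-colour array, called the WT-labelled and the KO-labelled array. P2ry6 encodes a receptor for the nucleotide UDP. All mice, both genotypes alike, were 2 months old at the start and received UVB on the shaved back at 180 mJ/cm2 for 10 weeks, then in weekly steps of 10 mJ/cm2 up to 300 mJ/cm2 at week 22, and at that dose to week 40. The strain background, the deleted part of the gene, and the number of tumours or mice behind each RNA sample are not given in the sources used here. No unirradiated skin was part of the comparison, so the values show tumour against tumour, not the response to UV.

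UVB links neighbouring pyrimidines in DNA into dimers and 6-4 photoproducts. Nucleotide excision repair removes them: the XPC and DDB complexes find the lesion in the whole genome, CSA and CSB start the repair where RNA polymerase has stalled, TFIIH opens the helix, XPA and RPA hold the open strand, XPG and the ERCC1-XPF nuclease cut on either side, and synthesis and ligation fill the gap. The transcription factor p53, encoded by Trp53, is stabilised by such damage, induces genes of cell cycle arrest, cell death and metabolism, and is held in check by Mdm2 and Mdm4. Trp53 itself is often mutated in UV-induced skin tumours, and Trp63 is a lineage factor of basal keratinocytes.

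A level is the log2 processed signal of a probe relative to the 75th percentile of its array (347 signal units on the WT-labelled and 327 on the KO-labelled array). A difference is the KO-labelled minus the WT-labelled level, averaged over the measured probes of a gene, and a gene counted as apart where that was at least 1 log2 unit (2-fold) in size. With 1 array per genotype there was no replicate and no test, so differences are described by size. The measurable error was technical: the difference had an SD of 0.12 for a single spot (293 probes with repeated spots) and 0.38 between probes of 1 gene (6731 genes), and 0.38 over the 23 genes described here that had 2 or more measured probes. These errors do not cover the spread between mice or tumours. Where an SD stands beside a gene, it is the SD over its probes and n is the number of probes.

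P2ry6 was higher, not lower, on the KO-labelled array. Its probes read 364 and 137 signal units on the WT-labelled array and 835 and 318 on the KO-labelled array, so the gene was higher there by 1.29 ± 0.01 on the log2 scale (SD, n = 2 probes). Such a reading checks the label only where the probe lies in what was deleted. The arrays therefore keep their labels as names, and every direction rests on them. The share of spots well above background was 57.8% and 57.9%. Skin epithelium was present on both arrays, with 10 of 10 basal keratinocyte markers measured.

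The sequences shown are of 2 kinds, probes and promoters. Trp53inp1 and Fas each had probes that read in opposite directions, so the first 30 bases of each 60-base probe are given, with positions on mm9 as the array files place them. No exon annotation of that build was used, so whether a probe lies in an exon or an untranslated region was not analysed here. None of the letters is capitalised, since no base was singled out.
Trp53inp1, chr4:11092530-11092589, plus strand: aactcctgtcctggtctcagtgaggcgagt
Trp53inp1, chr4:11101174-11101233, plus strand, the probe with an outlier flag: gtgtgtttatgggcacaatgttttctctca
Fas, chr19:34402164-34402223, plus strand: gaagaccttccattgatggacagttctttt
Fas, chr19:34383733-34383792, plus strand, not well above background on 1 array: ggagagactctttaaaatgaaaacacaata
Fas, chr4:40555124-40555183, minus strand, on another chromosome than the gene: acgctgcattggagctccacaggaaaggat

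The p53 response element is built of decamers, runs of 10 bases in which purines, a C, 2 bases that are A or T, a G and pyrimidines follow each other, and a full site is here 2 decamers at most 13 bases apart. A decamer reads as one on both strands. RefSeq promoters (GRCm38.p6, 250 bases before a transcription start, read along the gene) were available for 35 of the 43 genes, in 42 windows. Of all 32851 promoter windows 7.13% held a decamer, against 40.0% (8 of 20) for the p53 genes and 4.55% (1 of 22, that of Cetn2) for the repair genes. Many of the p53 genes were named as such because p53 binds near them, so that share is not independent of how the list was made. A full site stood in 0.0639% of all windows and in 1 window of the genes described here, 1 of the 2 windows of Cdkn1a. The promoters of Cdkn1a and of 3 other genes with a decamer are shown: Gadd45a and Sesn1 had the greatest positive differences among the 8 p53 genes with a decamer, and Cdkn1a and Mdm2 had probes that disagreed. Capitals mark the decamers.
Cdkn1a, chr17:29090729-29090978, plus strand: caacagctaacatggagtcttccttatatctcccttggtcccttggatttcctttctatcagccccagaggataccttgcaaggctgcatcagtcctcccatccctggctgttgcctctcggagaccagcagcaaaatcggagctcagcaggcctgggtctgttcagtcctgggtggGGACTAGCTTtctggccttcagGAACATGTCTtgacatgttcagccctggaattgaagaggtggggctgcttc
Gadd45a, chr6:67037408-67037657, minus strand: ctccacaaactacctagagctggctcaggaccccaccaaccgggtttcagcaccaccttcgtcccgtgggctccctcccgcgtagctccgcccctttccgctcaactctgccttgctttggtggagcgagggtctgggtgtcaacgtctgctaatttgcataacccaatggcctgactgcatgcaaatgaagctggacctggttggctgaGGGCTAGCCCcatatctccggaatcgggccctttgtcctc
Sesn1, chr10:41887189-41887438, plus strand: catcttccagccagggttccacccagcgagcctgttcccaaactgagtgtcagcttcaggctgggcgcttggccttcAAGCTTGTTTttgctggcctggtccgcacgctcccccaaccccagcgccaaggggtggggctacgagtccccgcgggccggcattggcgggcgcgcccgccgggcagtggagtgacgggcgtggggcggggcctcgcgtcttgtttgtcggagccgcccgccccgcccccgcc
Mdm2, chr10:117710759-117711008, minus strand: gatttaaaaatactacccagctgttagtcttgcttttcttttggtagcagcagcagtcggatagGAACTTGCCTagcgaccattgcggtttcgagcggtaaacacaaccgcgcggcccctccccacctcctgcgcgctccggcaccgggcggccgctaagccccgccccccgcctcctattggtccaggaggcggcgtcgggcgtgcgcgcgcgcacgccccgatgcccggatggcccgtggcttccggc

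In these windows the decamers of Cdkn1a began 73 and 51 bases before the start, that of Gadd45a 40, that of Sesn1 173 and that of Mdm2 186 bases before it. Ccng1 had one at 185, Aen at 121, Trp53 at 75 and Ei24 at 10 bases before the start. Cdkn1a, Sesn1 and Aen each had 2 windows, of which only 1 held a decamer. The TATA motif TATAAA was in 5.0% of the windows of the p53 genes, in 0 of the 22 windows of the repair genes and in 12.4% of all windows. The motif CCAAT stood in 45.0%, 54.5% and 33.8% of them in the same order. Each motif was searched on both strands, and matches of different motifs were counted whether or not they overlapped. A match is a run of letters and says nothing of binding in these tumours.

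The excision repair genes stayed close together. The 23 genes under this short name include Polh, a bypass polymerase, and Xrcc1, a scaffold of single-strand break repair. None of the 23 was 2-fold higher and none 2-fold lower on the KO-labelled array, where 4.82% of all measured genes were 2-fold higher and 5.04% were 2-fold lower. At such shares about 1 of 23 genes would pass in each direction, so a count of 0 is near the background. Their differences ran from -0.51 (Cetn2) to 0.56 (Xpc), with a median of -0.12 and an SD over genes of 0.32, and 20 of the 23 (87.0%) lay within 0.5 of 0. Over all measured genes the median was -0.06, the SD 0.65 and the share within 0.5 was 66.3%. Such a narrow spread was not particular to these 23 genes. For the other excision repair genes listed further below the SD was 0.24 and the share within 0.5 was 100%. The damage signalling list had 0.31 and 94.7%, and the list of other repair pathways 0.36 and 84.6%. Of the 23 genes 15 were below 0, where 54.9% of all genes were. Under quantile normalization 12 of the 23 were below 0, and 10117 of the 19872 genes. The count was also 12 in the authors' values, and 13 under loess and without the filter on dim probes. Scaled on 8 spike-in control probes, every difference was lower by 0.53, the median of all genes became -0.59 and that of the repair genes -0.65, so signs depend on the scale while distances from the other genes do not. On that scale Cetn2 (-1.04), Ercc3 (-1.03) and Gtf2h3 (-1.02) passed 2-fold lower, Xpc (0.03) and Ercc5 (0.017) stayed above 0, and the other 6 genes above 0 (Ddb2, Ercc6, Gtf2h1, Xpa, Rpa3 and Xrcc1) turned below it.

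Among the genes that find the lesion, Xpc, whose protein recognises the distorted helix, was the highest. Its probes read 578 and 203 signal units on the WT-labelled and 815 and 277 on the KO-labelled array, 0.56 ± 0.03 apart (SD, n = 2 probes). Both probes were higher on the KO-labelled array by nearly the same amount, and on the spike-in scale the gene stood at 0.03. Its partners in the complex stood on the other side of 0. Cetn2, which encodes centrin-2, read 2124 and 1410 (-0.51, 1 probe). Rad23b, which stabilises XPC, differed by -0.24 ± 0.17 (SD, n = 5 probes), and all its probes were below 0, from -0.05 to -0.50. The brightest of them read 10964 units on the WT-labelled and 7326 on the KO-labelled array. Ddb1 and Ddb2 form the sensor of UV lesions in chromatin. Ddb1, which also serves the CUL4 ubiquitin ligase, read 31153 and 27058 (-0.12), and Ddb2, itself a p53 target in human cells, read 436 and 328 against 471 and 300 (0.08 ± 0.17, SD, n = 2 probes). The Ddb2 probes lay on different sides of 0, by less than the SD between probes of a gene.

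The pair of genes that couple repair to transcription was read near background by several probes. Ercc6, which encodes CSB, was measured by 1 of its 3 probes, at 42.4 units on the WT-labelled and 51.7 on the KO-labelled array (0.37). The other 2 probes of Ercc6 were not well above background on either array. Ercc8, which encodes CSA, read 151, 31.0 and 539 units on the WT-labelled and 158, 22.4 and 401 on the KO-labelled array. The first of these probes was above 0 (0.15) and the others below (-0.38 and -0.34), with a mean of -0.19 ± 0.30 (SD, n = 3 probes). A further Ercc8 probe was well above background on the WT-labelled array but not the other, at 21.5 units, and read 14.5 on the other, near the lowest signals that counted as above background (17.7 and 17.4 units).

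The 6 genes of TFIIH, the complex whose helicases open the DNA, had a median of -0.18, and 5 of the 6 were below 0. Of these, Ercc2 was at 0 to 2 decimals and above 0 under 5 of 11 alternatives. Gtf2h2 was at 0.12 with its brightest probe. Ercc3, which encodes the XPB helicase, read 491 and 1928 units on the WT-labelled and 304 and 1386 on the KO-labelled array (-0.50 ± 0.15, SD, n = 2 probes). Gtf2h3 had the next lowest value, with 791 and 530 units at its measured probe (-0.49). Ercc2, which encodes the other helicase, XPD, read 1195 and 1124 (-0.00), and a second probe of it was well above background on the KO-labelled array alone, at 15.9 against 23.6 units. The core subunits Gtf2h4 (-0.26), Gtf2h2 (-0.11) and Gtf2h1 (0.13) lay nearer to 0. None of the 6 reached 2-fold, and their SD over genes was 0.26. That SD is taken over gene means, so it cannot be set against the SD between single probes.

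Of the genes that hold the open strand, Xpa, which checks the damaged strand, had 3 probes above 0, but they were uneven. Its probes on the RefSeq mRNA read 1355 and 419 units on the WT-labelled and 1431 and 449 on the KO-labelled array (0.16 and 0.18). The third, on a cDNA clone, read 32.7 and 55.4 (0.85) and moved the mean of the gene to 0.40 ± 0.39 (SD, n = 3 probes). The subunits of RPA, the protein that coats single strands, stood at -0.19 (Rpa1), -0.08 (Rpa2) and 0.37 (Rpa3).

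The nuclease genes were split. Ercc5, which encodes XPG, the nuclease on the 3' side of the lesion, was above 0 with each of its probes. These read 57.3, 41.4 and 801 units on the WT-labelled and 89.4, 56.0 and 991 on the KO-labelled array (0.55 ± 0.17, SD, n = 3 probes). Both subunits of the 5' nuclease were below 0, Ercc1 at -0.33 ± 0.17 (SD, n = 2 probes) and Ercc4, which encodes XPF, at -0.23 ± 0.61 (SD, n = 2 probes). The Ercc4 value averaged a probe that was lower on the KO-labelled array (58.4 against 34.7 units, -0.67) and one that was not (765 against 828, 0.20), so that its sign turned when the brightest probe stood for the gene (0.20).

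Polh encodes the polymerase that copies past pyrimidine dimers. Its 3 probes read 106, 53.4 and 45.7 units on the WT-labelled and 87.0, 42.2 and 34.2 on the KO-labelled array (-0.26 ± 0.07, SD, n = 3 probes). Lig1, the ligase of replication and repair, read 3347 and 196 against 2763 and 161 (-0.20 ± 0.01, SD, n = 2 probes), and Xrcc1, the scaffold of single-strand break repair, read 2309 and 2234 (0.04). Polh, Lig1 and Xrcc1 thus lay within 0.5 of 0, as 20 of the 23 did.

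**Figure D1:**
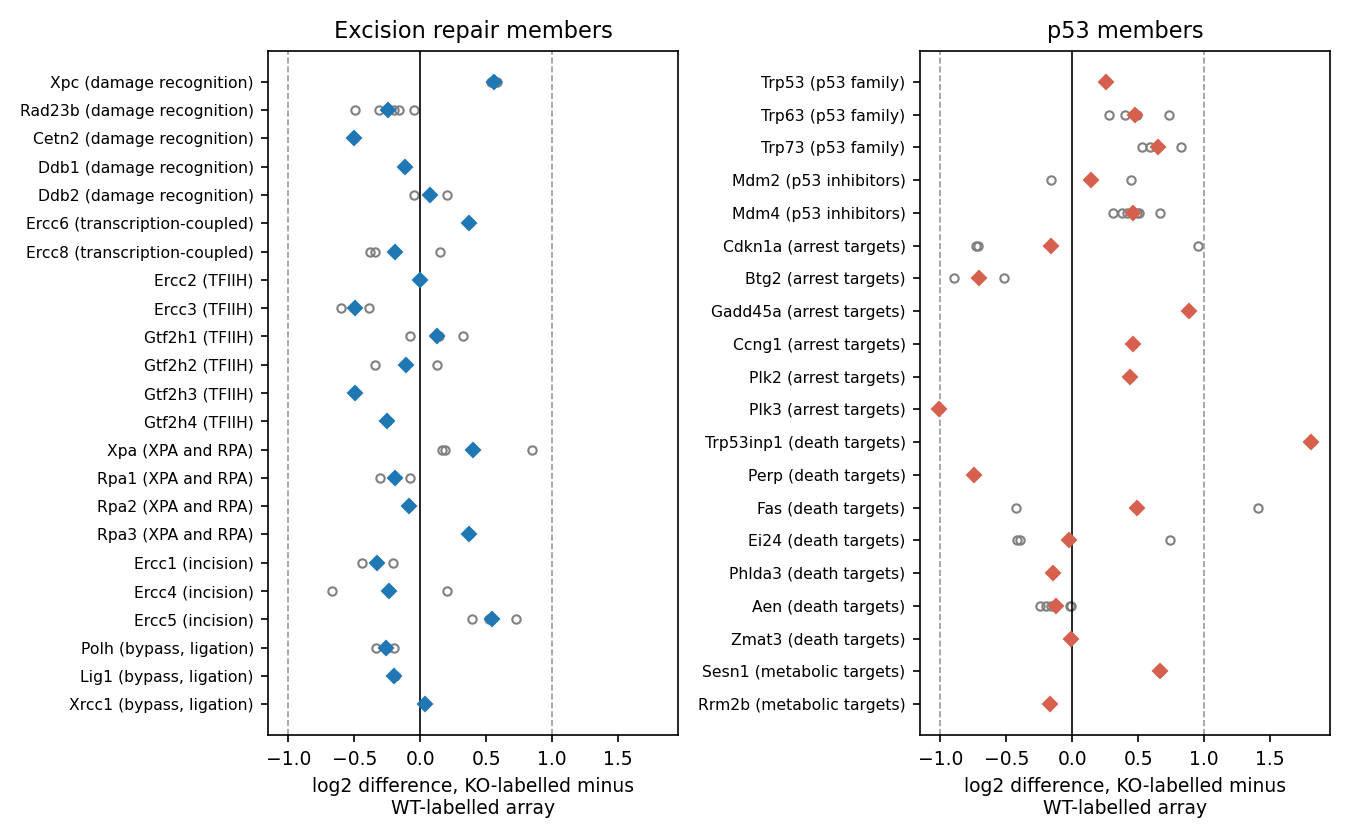
Difference of each gene, KO-labelled minus WT-labelled array (log2, x axis), for the excision repair genes on the left and the p53 genes on the right, ordered by role. Diamonds are the mean over measured probes, open circles the single probes of genes with 2 or more, and dashed lines mark 2-fold. All 23 repair genes lie between the dashed lines, and Trp53inp1 (1.81) and Plk3 (-1.01) lie outside them.

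The p53 genes were more spread. Of the 20, 1 was 2-fold higher (Trp53inp1), 1 was 2-fold lower (Plk3) and 18 were neither, against 4.82% and 5.04% of all genes, so both counts were at the background. Their median was 0.20 and their SD over genes 0.63, near the 0.65 of all genes, and 13 of the 20 (65.0%) lay within 0.5 of 0. Of the 20 genes 11 were above 0 and 9 below, where 8961 of all 19872 genes were above 0. Under quantile normalization, loess and in the authors' values 14 of the 20 were above 0, with medians of 0.31, 0.30 and 0.31. Of all genes 9748, 9581 and 9757 were above 0 there, with medians of -0.01, -0.02 and -0.01. The median of the p53 genes was 0.066 with flagged spots kept and -0.014 with the brightest probe of each gene. The sign of that median thus depends on these choices. On the spike-in scale that median was -0.33, above the -0.59 of all genes on that scale.

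**Figure D2:**
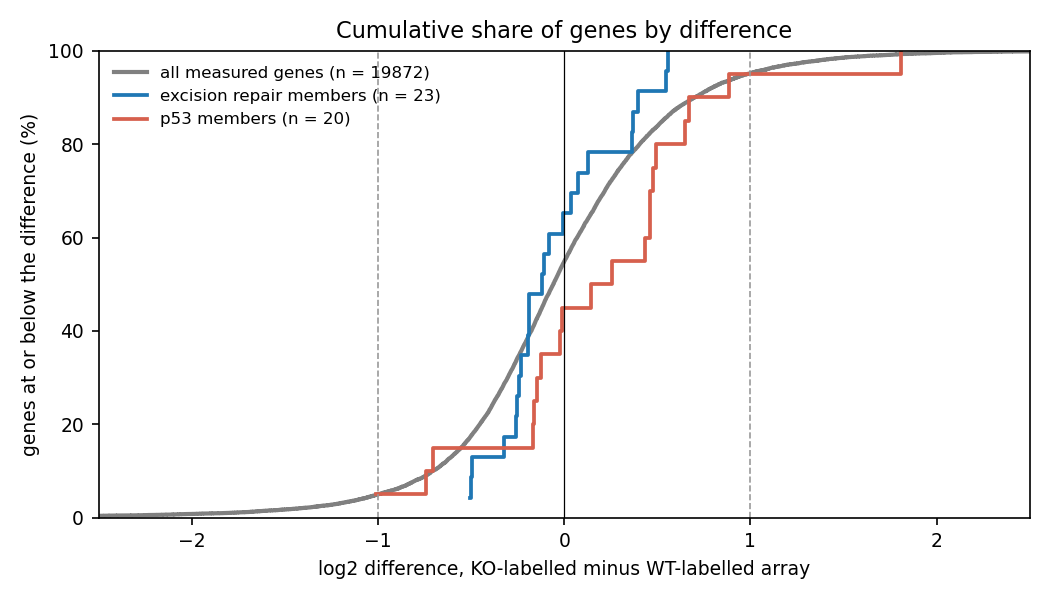
Share of genes (%, y axis) at or below each difference (log2, KO-labelled minus WT-labelled, x axis, drawn from -2.5 to 2.5), for all 19872 measured genes in grey, the 23 excision repair genes in blue and the 20 p53 genes in red. The blue line runs its whole course between -0.51 and 0.56, while the red line follows a spread like that of all genes and crosses the median at 0.20.

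The 3 genes of the p53 family were all above 0, and so was each of their 8 probes; on the spike-in scale Trp53 (-0.27) and Trp63 (-0.05) were below 0 and Trp73 (0.12) stayed above. Trp53, the factor itself, read 908 units on the WT-labelled and 1023 on the KO-labelled array (0.26, 1 probe). Trp63 read 6345, 578, 2837 and 8840 on the WT-labelled array and 9951, 720, 3761 and 10097 on the other (0.48 ± 0.19, SD, n = 4 probes). Trp73, the third paralogue, read 630, 138 and 62.7 against 1052, 196 and 85.1 (0.65 ± 0.16, SD, n = 3 probes). Trp53, read by 1 probe, was higher by less than the SD between single probes of a gene. The values of Trp63 and Trp73 are means over probes, so they cannot be set against that SD. With the brightest probe of each gene Trp63 was at 0.28 and Trp73 at 0.82. The level of an mRNA does not show how much p53 protein is stabilised or whether Trp53 was mutated, neither of which was analysed here.

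The inhibitors of p53 were above 0 as well, although Mdm2 by little, and both were below 0 on the spike-in scale (-0.39 and -0.07). Mdm2, the ubiquitin ligase that marks p53 for destruction and is itself a p53 target, read 4932 and 161 on the WT-labelled array and 4155 and 207 on the other. The first of these differed by -0.16 and the second by 0.44, so the mean of 0.14 ± 0.43 (SD, n = 2 probes) had no settled direction. Mdm4, which binds and silences p53, was even across its probes. On the WT-labelled array they read 341, 773, 139, 121, 134 and 81.2 units, and on the KO-labelled array 398, 1025, 207, 162, 164 and 102 (0.46 ± 0.12, SD, n = 6 probes). All 6 were higher on the KO-labelled array.

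Targets that arrest or brake the cell cycle did not share a direction. Plk3, a polo-like kinase induced by stress, read 8247 units on the WT-labelled and 3859 on the KO-labelled array (-1.01, 1 probe). That is just past 2-fold lower, and the gene was short of it under quantile normalization, loess, normexp background correction and in the authors' values. Btg2, an antiproliferative and immediate early gene, read 2583 and 5359 against 1701 and 2713 (-0.71 ± 0.27, SD, n = 2 probes). At the other end stood Gadd45a, a stress gene that acts in arrest and repair, with 290 and 506 units (0.89). Its second probe was not well above background on either array (5.40 and 17.7 units). Plk2 (1993 and 2539 units, 0.43) and Ccng1, which encodes cyclin G1 (1051 and 1363 units, 0.46), lay between them, above 0 on the main scale and below it on the spike-in scale (-0.10 and -0.07).

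Cdkn1a encodes p21, the cyclin-dependent kinase inhibitor that is the best known arrest target of p53. Its mean difference of -0.16 ± 0.96 (SD, n = 3 probes) joined probes that disagreed. The probe on its main RefSeq mRNA read 7481 units on the WT-labelled and 4263 on the KO-labelled array (-0.73). One on an Ensembl transcript read 75.7 and 43.5 (-0.71). The one on another RefSeq variant went the other way, with 23.9 and 43.6 units (0.95). Its signal on the WT-labelled array was near the lowest that counted as above background there (17.7 units). With the brightest probe standing for the gene, and under the stricter filter on dim probes, Cdkn1a was at -0.73. The mean over its 3 probes lay within 0.5 of 0. Over its probes on RefSeq mRNAs, at -0.73 and 0.95, the gene was at 0.11. Of the 2 promoter windows of Cdkn1a, 1 held a full site as defined here and the other held no decamer. Only exact matches to the pattern counted, so a run that departs from it at any base was not marked. Which transcription start belongs to which probe was not analysed.

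Targets of the death branch ran from -0.74 (Perp) to 1.81 (Trp53inp1), and the upper end rests on how a flagged spot is treated. Trp53inp1, a nuclear protein that promotes p53 activity and autophagy, had 2 probes that contradicted each other. The probe at chr4:11092530-11092589 carried no flag and read 60.2 units on the WT-labelled and 199 on the KO-labelled array, 3.51-fold higher (1.81). The probe at chr4:11101174-11101233 read 11936 and 1836 units, 6.13-fold lower (-2.62). That probe was flagged by the scanner software as a non-uniform feature (gIsFeatNonUnifOL) on the WT-labelled array, where the value was 1, and not on the KO-labelled array, where it was 0. The population outlier flag (gIsFeatPopnOL) was 0 on both arrays, and both flags were 0 on both arrays for the other probe.

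The flag can be read in the pixels of that spot. On the WT-labelled array its 44 pixels had a mean of 12286, a median of 8277.5 and an SD of 10787, which is 87.8% of the mean. On the KO-labelled array the SD was 15.2% of the mean. Pixel medians in place of means still gave a difference of -2.06, so the spot still read higher on the WT-labelled array. Flagged spots were left out, which set the gene at 1.81. With them kept, Trp53inp1 was at -0.40 and the gene was no longer apart, so the 1 p53 gene counted as 2-fold higher rests on 1 probe and on the treatment of 1 spot. Its direction is not settled by these arrays.

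Fas, the death receptor of the TNF receptor superfamily, had a similar conflict without a flag. The probe at chr19:34402164-34402223 read 169 units on the WT-labelled and 424 on the KO-labelled array, 2.66-fold higher (1.41). The other probe on chromosome 19 was not well above background on the WT-labelled array (14.2 units) and read 33.6 on the other. The probe that the array file places on chromosome 4 read 2071 and 1454 (-0.43). The file describes its target as a Fas mRNA that holds the long terminal repeat of an ETn retrotransposon, and whether its signal comes from the Fas locus was not tested. The mean of 0.49 ± 1.30 (SD, n = 2 probes) fell short of 2-fold, and without the chromosome 4 probe Fas was at 1.41, past it.

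**Figure D3:**
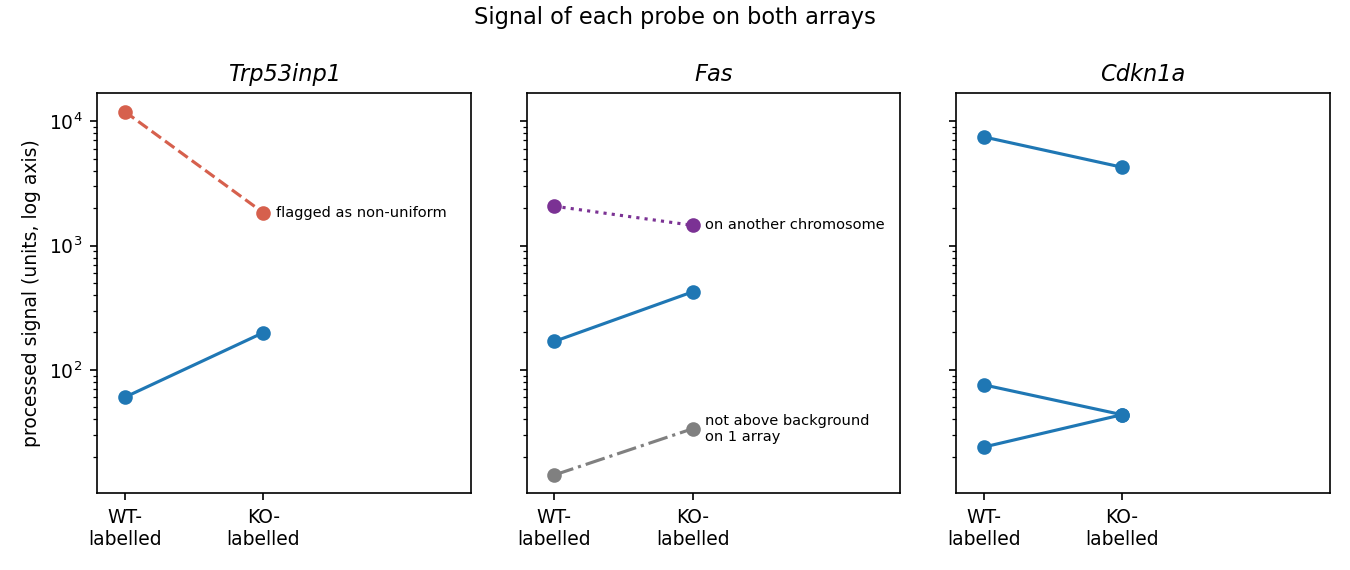
Processed signal (units, log axis, y) of each probe of Trp53inp1, Fas and Cdkn1a on the WT-labelled and the KO-labelled array (x), 1 line per probe. Solid blue lines are probes well above background on both arrays and without a flag, the dashed red line is the Trp53inp1 probe flagged on the WT-labelled array (11936 to 1836 units), the dotted purple line the Fas probe on another chromosome (2071 to 1454) and the grey line the Fas probe that was not well above background on the WT-labelled array.

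The other death targets were at or below 0 on the main scale. Under quantile normalization Phlda3 (0.11), Aen (0.05) and Zmat3 (0.08) were above 0, as they were under loess and in the authors' values, while Perp and Ei24 stayed below. Perp, a p53 and p63 target that is also a desmosome component of keratinocytes, read 164615 units on the WT-labelled and 92864 on the KO-labelled array (-0.74, 1 probe). Phlda3, an inhibitor of AKT, read 18749 and 15996 (-0.14). Aen, an apoptosis-enhancing nuclease, was at -0.13 ± 0.11 (SD, n = 5 probes), with each probe below 0. Ei24 stood at -0.02 ± 0.67 (SD, n = 3 probes), the mean of probes at -0.39, -0.42 and 0.74, and Zmat3, a p53-induced zinc finger protein, at -0.01.

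Of the targets with metabolic roles, Sesn1, which restrains mTORC1 under stress, read 1568 units on the WT-labelled and 2351 on the KO-labelled array (0.67). Rrm2b, the p53-induced subunit of ribonucleotide reductase that supplies nucleotides for repair, read 31.4 and 26.3 (-0.17), and its second probe was not well above background on either array. The difference of Sesn1 is above the SD between probes of a gene and that of Rrm2b is below it.

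Split by the promoters, the 8 p53 genes with a decamer in any window had a median difference of 0.20, from -0.16 to 0.89. The 7 without one had a median of 0.43, from -1.01 to 0.65. The ranges overlap, and the genes without an entry among the promoters, Perp, Rrm2b, Trp53inp1, Trp63 and Zmat3, are in neither group.

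**Figure D4:**
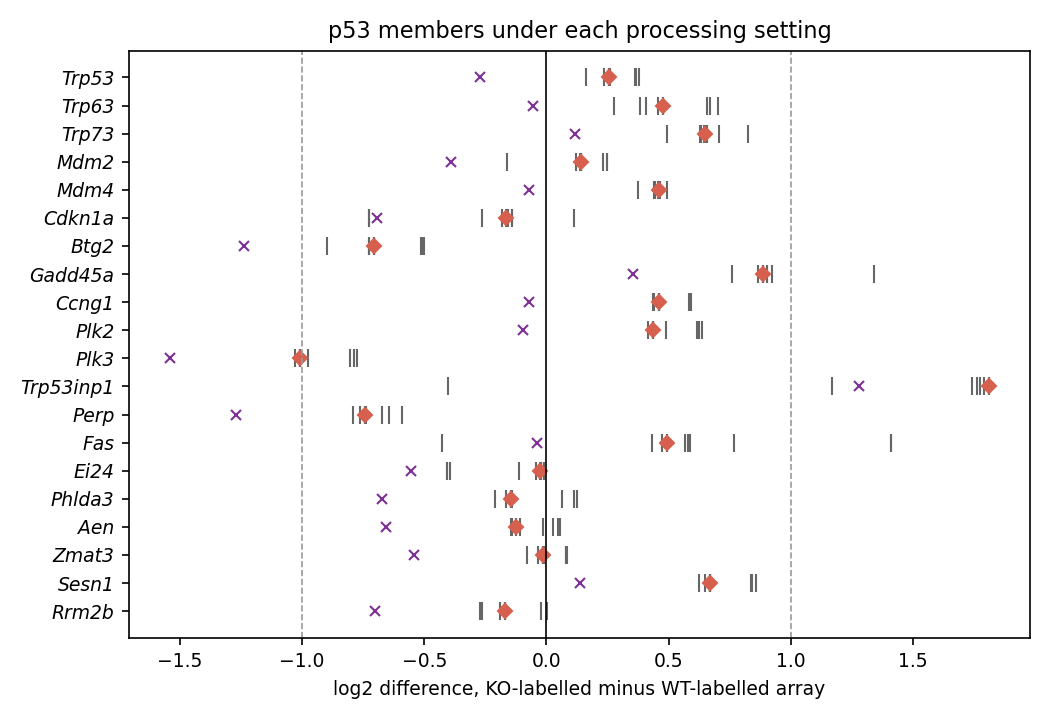
Difference (log2, KO-labelled minus WT-labelled, x axis) of each of the 20 p53 genes (rows) under the processing settings. Red diamonds are the values reported, grey ticks the other settings, purple crosses the spike-in scale, and dashed lines mark 2-fold. Each purple cross lies 0.53 to the left of its diamond, and Trp53inp1 is the gene whose tick for kept flagged spots (-0.40) lies on the other side of 0 from a value past 2-fold.

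Further genes of the same pathways were set beside them. Of 24 other excision repair genes measured, 0 were 2-fold apart in either direction and the median was -0.20, with Cdk7, the TFIIH kinase (-0.49), Usp7, a deubiquitinase (-0.46), Pcna, the sliding clamp (-0.39), and Rfc3, a clamp loader subunit (0.38), at the greatest sizes. Of 35 other p53 targets measured, 1 was 2-fold higher, the adenylate kinase gene Ak1 (1.01), and 1 was 2-fold lower, the immediate early phosphatase gene Dusp1 (-2.06), around a median of 0.11. The death receptor gene Tnfrsf10b (0.90) and the apoptosome gene Apaf1 (0.88) came next. Neither 2-fold count was more than 1, as among the 20 p53 genes.

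Of the 19 genes of damage signalling that were measured, 0 were 2-fold apart and the median was 0.03, with the checkpoint kinase gene Atr at 0.68 and Wee1, the kinase that holds Cdk1 inactive, at -0.48. Mre11a (-0.41), a break sensor, and Mdc1 (0.41), a mediator of the break response, followed. Of 26 genes of other repair pathways 0 were 2-fold apart and the median was 0.00. Lig4, the ligase of end joining, was at -0.86, Mgmt, which removes alkyl groups from guanine, at 0.77, Ogg1, which removes oxidised guanine, at 0.63, and Poli, a bypass polymerase, at 0.51. The damage signalling and other repair lists thus had medians near the -0.06 of all genes.

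Several lists of cell state and cell type differed between the arrays too. Of 27 measured cell cycle genes 25 were below 0, with 4 of them 2-fold lower, 0 higher and a median of -0.51: Cdc20 (-1.22), Cdk1 (-1.02), Tpx2 (-1.02) and Ube2c (-1.01). Of 11 suprabasal keratinocyte markers 6 were 2-fold lower and 0 higher (median -1.03), of 10 sebaceous markers all 10 were 2-fold lower (median -2.89), and of 11 macrophage markers 6 were 2-fold higher and 1 lower (median 1.1). The summed signal of the suprabasal list was 610721 units on the WT-labelled and 314838 on the KO-labelled array, that of the sebaceous list 89183 and 16962, and that of the macrophage list 4427 and 8306.

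The basal keratinocyte markers had a median of -0.06, with 1 of 10 2-fold higher (Krt5, 1.66), 0 lower, and summed signals of 396849 and 488313 units. Of 9 T and NK cell markers 3 were 2-fold lower (median -0.36, summed signals 1817 and 1254), and of 9 fibroblast markers 1 was 2-fold higher (median -0.14, 27918 and 26154). Of 10 endothelial markers 1 was 2-fold higher (median 0.34, 6723 and 9695), and of 6 skeletal muscle markers 1 was 2-fold higher (Acta1, 3.84; median 0.12, 1662 and 1786). In bulk tumour RNA, fewer cells of a type and less RNA per cell cannot be told apart. On the spike-in scale each list's differences were lower by 0.53, which puts the endothelial and skeletal muscle medians, and those of the other p53 targets, damage signalling and other repair, below 0. The part of these cell types in the values of Perp, Plk3, Btg2, Fas and the other p53 genes was not tested.

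**Figure D5:**
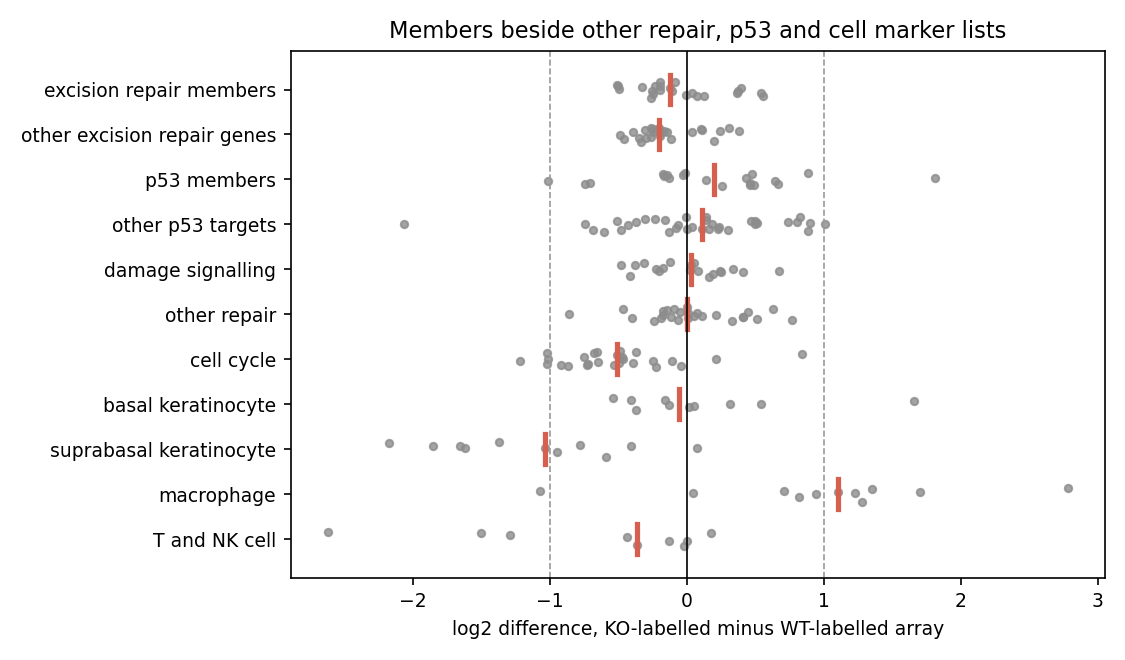
Difference (log2, KO-labelled minus WT-labelled, x axis) of each measured gene (grey points, spread vertically for visibility) in the excision repair genes, the p53 genes and 9 other lists (rows), with the median of each list as a red bar and 2-fold as dashed lines. The medians of the excision repair and other excision repair genes are -0.12 and -0.20 and those of the p53 genes and other p53 targets 0.20 and 0.11, while the suprabasal keratinocyte list (-1.03) and the macrophage list (1.1) lie to either side.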

How the data were processed

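Total RNA (0.2 µg per cRNA reaction) was hybridised to 1 Agilent array per genotype, both on 1 slide in 1 scan per the file headers. Spot intensity was extracted by the authors with Agilent Feature Extraction 10.7.1.1, per the submitters' processing notes, and no non-control spot was saturated. The authors also deposited log2 values by a method the sources do not state. These correlated with the log2 processed signal at 0.9999 and 0.9997 over 56594 probes, and the median of each column was 4.97.

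Spots flagged as non-uniform or population outliers on either array were left out (186 spots). Log2 processed signals were averaged per probe and scaled on the array's 75th percentile over non-control probes. Probes counted as measured if most of their spots were marked well above background on each array. The 43 genes had 99 probes: 86 were used, 1 was flagged, 9 were dim on both arrays, 2 on the WT-labelled and 1 on the KO-labelled array alone. In 9 of the 23 genes with several used probes these differed in sign, as they did in 2446 of the 6731 such genes on the arrays. Genes were taken by their name in the array files. A RefSeq gene table (GRCm38.p6) served to name the other genes, with 31387 probes keeping their symbol, 1535 given a new one and 23584 without a match.

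The genes and lists were chosen with earlier results of these data known. Values of each probe are given for genes 2-fold apart by the mean or any probe, genes with a probe above background on 1 array only, and a fixed set of central genes. Others are given by role, with up to 4 per further list by size of difference. Alternatives were normexp (offset 50), quantile and loess normalization, median and spike-in scales, the authors' values, no filter or a stricter one (4 times the lowest signal above background), flagged spots kept, and the brightest probe. RefSeq mRNA probes only, and Fas without 1 probe, were added after seeing the data. The computation was tested on simulated data, with Python 3.11.15, R 4.3.3 and limma 3.58.1.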

Additional observations from a re-analysis of the deposited data

How the results depend on the processing

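The median of the excision repair genes was -0.12 and kept its sign under every alternative, from -0.65 on the spike-in scale to -0.05 with normexp. That of all genes (-0.06) was also below 0 under every alternative but the one without the dim-probe filter (0.05). It was -0.59 on the spike-in scale and -0.03 with normexp. Repair and all genes were at -0.10 and -0.10 under the stricter filter, -0.08 and -0.09 with the brightest probe, and -0.09 and -0.01 under quantile normalization. The sign alone thus does not set the repair genes apart. The number of excision repair genes 2-fold apart was 0, and 3 on the spike-in scale, and 0 under each other alternative. The median of the p53 genes was 0.20. It was 0.31 under quantile normalization and in the authors' values, and 0.30 under loess. On the spike-in scale it was -0.33, with flagged spots kept 0.066 and with the brightest probe of each gene -0.014. The number of p53 genes 2-fold apart was 2, and it was 1 under normexp, quantile normalization, loess, in the authors' values, under the stricter filter and with flagged spots kept. Trp53inp1 was the 1 gene past 2-fold in the first 4 of these, and Plk3 in the other 2. The count was 4 on the spike-in scale, 3 without the dim-probe filter and 3 over RefSeq mRNA probes only. Trp53inp1 reversed to -0.40 with flagged spots kept, was 1.17 with normexp and had no value under the stricter filter, which left 40 of the 43 genes. Gadd45a reached 1.34 with no filter on dim probes and Fas 1.41 with RefSeq mRNA probes only. Outside the spike-in scale 28 of the 43 genes kept their sign under each alternative. All 43 moved by more than the SD between probes (0.38) on the spike-in scale, since it shifts every difference by -0.53, and 13 changed sign there. With normexp 368 of all genes were 2-fold higher and 578 lower, and on the spike-in scale 269 and 3791, against 957 and 1002. Leaving out a replicate was not run, since each group has 1 array. No paired analysis was possible because each genotype has 1 array. Signal limits probes read near background. The scanner error of the difference was 0.28 for the measured Ercc6 probe and 0.37 for that of Rrm2b. Single dim probes of other genes had errors of 0.41 (Ercc8), 0.34 (Rad23b), 0.34 (Cdkn1a), 0.30 (Xpa) and 0.30 (Polh). Those of Cdkn1a and Xpa are the probes that differed by 0.95 and 0.85. The median error was 0.20 over the probes of the 43 genes.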
